A study of Mus musculus with 6 samples.

Results

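Of 37 listed mouse genes that encode Toll-like receptors, their co-receptors and adaptors, the kinases below them, NOD-like receptors and inflammasome components, 36 carried at least 1 ATAC-seq peak, and these genes held 266 of the 92864 distinct peaks. Genes were found by the gene symbol that the deposited table gives each peak, 18755 genes having a peak in all. Whether a distal peak acts on the gene whose symbol it carries was not tested. Of the 266 peaks, 74 were of the promoter class, within 3 kb of a transcript start, and 192 were distal, 30 of these more than 100 kb from the start. The exception was Myd88, whose symbol no peak carried.

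ATAC-seq, in which the Tn5 transposase inserts adapters into accessible DNA, was carried out on tumour macrophages of wild-type mice bearing SB28 glioma cells in the brain. Bone marrow derived macrophages (BMDM), the recruited cells, were gated as F4/80+ CD11b+ CD45+ with high CD49d. Microglia (MG), which settle in the brain during development, were gated as F4/80+ CD11b+ with low CD45 and low or no CD49d. Both gates required low or no LY6C and no LY6G, and each group had 3 libraries from tumour tissue, with no cells from brain without a tumour analysed here. The labels name the cells by these gates alone and do not state that libraries came from separate animals, so the p-values measure the spread between libraries, which may be technical.

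Toll-like receptors are membrane sensors of microbial products that signal through the adaptors Myd88, Tirap, Ticam1 and Ticam2 to Irak kinases and the ubiquitin ligase Traf6, and from there to NF-kB and interferon regulatory factors. NOD-like receptors detect microbial or danger signals in the cytosol, and some of them, with Aim2, assemble inflammasomes in which Pycard links the sensor to Casp1, the protease that matures interleukin-1 family cytokines. In the brain, microglia are the main carriers of these sensors at rest, while recruited monocytes and macrophages bring their own set.

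Of the promoters of Nlrc4, Tlr3, Nlrp3, Naip2 and Naip5, only that of Nlrc4 passed the test between BMDM and MG. The start-site windows of these genes are given. Each runs from 250 bases before to 50 after a gene start, 5′ to 3′ on the gene's strand, from RefSeq on GRCm38.p6, the assembly that mm10 represents. Capitals mark matches to the motifs searched. Nlrc4, on the minus strand at chr17:74459059-74459358, is shown because its promoter gave the lowest adjusted p of the listed genes. Tlr3, on the minus strand at chr8:45410331-45410630, is shown because its promoter was the only listed one with every BMDM library below every MG library. Nlrp3, on the plus strand at chr11:59542436-59542735, is the sensor promoter with the highest summed counts. Naip2 (minus strand, chr13:100202073-100202372) and Naip5 (minus strand, chr13:100247287-100247586) are shown as related copies between which reads may be shared.
Nlrc4: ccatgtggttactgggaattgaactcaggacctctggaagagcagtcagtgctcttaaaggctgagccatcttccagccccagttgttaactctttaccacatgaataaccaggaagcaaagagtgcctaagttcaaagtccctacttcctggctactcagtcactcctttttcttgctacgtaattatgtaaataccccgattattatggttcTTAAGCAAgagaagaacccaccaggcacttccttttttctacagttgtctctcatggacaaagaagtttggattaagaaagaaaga
Tlr3: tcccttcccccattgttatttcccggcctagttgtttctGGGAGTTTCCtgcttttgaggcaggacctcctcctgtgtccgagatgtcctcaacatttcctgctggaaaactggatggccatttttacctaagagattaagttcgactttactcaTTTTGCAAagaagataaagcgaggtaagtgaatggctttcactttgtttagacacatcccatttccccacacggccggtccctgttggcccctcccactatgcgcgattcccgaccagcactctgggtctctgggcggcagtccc
Nlrp3: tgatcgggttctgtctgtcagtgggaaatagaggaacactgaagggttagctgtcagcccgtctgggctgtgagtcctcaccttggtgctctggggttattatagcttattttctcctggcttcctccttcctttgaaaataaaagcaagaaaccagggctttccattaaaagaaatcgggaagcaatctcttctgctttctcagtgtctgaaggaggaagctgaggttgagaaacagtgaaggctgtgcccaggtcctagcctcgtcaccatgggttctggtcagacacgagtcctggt
Naip2: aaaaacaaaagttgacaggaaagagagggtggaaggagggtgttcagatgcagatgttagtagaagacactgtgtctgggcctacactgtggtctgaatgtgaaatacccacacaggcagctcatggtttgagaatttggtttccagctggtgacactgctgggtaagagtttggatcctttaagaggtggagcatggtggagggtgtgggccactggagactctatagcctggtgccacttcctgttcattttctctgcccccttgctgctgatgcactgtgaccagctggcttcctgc
Naip5: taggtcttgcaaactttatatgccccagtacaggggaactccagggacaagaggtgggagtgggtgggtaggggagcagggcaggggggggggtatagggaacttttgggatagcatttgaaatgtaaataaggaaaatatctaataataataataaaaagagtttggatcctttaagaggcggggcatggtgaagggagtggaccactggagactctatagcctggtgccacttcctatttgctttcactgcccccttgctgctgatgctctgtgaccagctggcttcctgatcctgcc

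The Nlrc4 window held TTAAGCAA, a match to the C/EBP letters TTGCNNAA read on the other strand, 36 bases before the start. The Tlr3 window held the NF-kB match GGGAGTTTCC, 211 bases before the start, and TTTTGCAA, a C/EBP match 95 bases before it. None of the motifs searched matched in the Nlrp3, Naip2 or Naip5 windows. Aligned with each other, the Naip2 and Naip5 windows were identical at 201 of 275 aligned bases (73.1%), against 57.2% between the Naip2 and Nlrc4 windows.

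RefSeq windows were found for 31 of the 37 genes, 41 windows in all, and were searched on both strands. The PU.1 letters GAGGAAGT were found in 6 of the 41 windows (14.6%), those of Aim2, Nlrp1b, Pycard, Tlr1, Tlr11 and Tlr9, against 3.2% of all 32851 windows. C/EBP letters were found in 9 (22.0%, against 10.8%). Letters of NF-kB (GGG, any 2 bases, TTTCC) and of the interferon response element (GAAA, any 2 bases, GAAA) were found in 3 windows each (7.32%), against 1.63% and 3.44% of all windows. A gene can have several windows, and the NF-kB windows were those of Casp4 and Tlr3 only. The interferon response element windows were those of Myd88, Tlr11 and Tlr6. AP-1 letters (TGANTCA) were found in 1 window, that of Tlr9 (2.44%, against 7.81%). These are matches of letters, and binding of the factors was not measured.

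Reads in peaks numbered 4910448 to 19727511 in BMDM libraries and 12531808 to 23601865 in MG libraries, with 20 to 90 reads in the median peak. Across peaks the log2 values correlated at 0.905 to 0.937 within BMDM, at 0.756 to 0.935 within MG and at 0.694 to 0.860 between the groups, and MG 1 was closer to all 3 BMDM libraries (0.839 to 0.860) than to MG 2 (0.756), though it was closest to MG 3 (0.892). Promoters of 5 of 8 monocyte and macrophage markers were called higher in BMDM, and those of 3 of 7 tested microglia markers were called lower. Summed over the list, monocyte and macrophage promoters held 2315 to 4511 normalized counts in BMDM and 1658 to 1768 in MG, and microglia promoters 1351 to 1811 in BMDM and 2842 to 5358 in MG, of which MG 1 was the highest. Other cell types also differed. Of T and NK cell promoters 4 of 7 tested were higher in BMDM (sums 1375 to 2209 in BMDM and 1156 to 1354 in MG), of neutrophil promoters 1 of 6 (886 to 1363 and 720 to 1139), and of endothelial promoters 1 of 5 (792 to 1179 and 962 to 1364). Summed promoters of neurons, astrocytes and oligodendrocytes held 1065 to 1246 normalized counts in BMDM, against 2190 in MG 1, 4433 in MG 2 and 2794 in MG 3, with 4 of 8 lower in BMDM. Of the markers of these other cell types, Ly6g, Retnlg, Cd3g, Aqp4, Snap25 and Tek had no promoter peak listed. The part of such cells in the results below was not tested.

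For each gene, normalized counts (reads scaled by the authors' size factors) were summed over its promoter peaks and, apart from these, over its distal peaks within 100 kb. Differences are log2 BMDM minus MG with their standard error, given relative to the median of all genes or peaks of that kind. That median was -0.31 for promoter sums, -0.11 for distal sums and -0.14 for single peaks. For the log2 ratio of distal to promoter counts it was 0.24, so the ratio of the median gene was higher in BMDM. The adjusted p comes from limma, with Benjamini-Hochberg adjustment over all features, and tests the difference before that shift, a feature being called at an adjusted p under 0.05. In a bulk library, a site open in fewer cells and a site less open in each cell cannot be told apart.

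Of the 37 listed genes, Nlrc4 and Tlr8 had promoters that passed the test between BMDM and MG, and both were higher in BMDM. Of 34 listed genes with a tested promoter sum, these 2 (5.88%) were called higher, where 2.75% of all promoters were, and 0 were called lower, where 9.16% of all promoters were. Cyclic loess scaling turned the split over all promoters, with 752 higher and 461 lower in place of 419 and 1397, and called 3 listed promoters higher (Nlrc4, Nod2 and Tlr6) and 0 lower. At an unadjusted p under 0.05, 2 were higher and 1 lower, and voom on the recovered reads also called 2 higher and 0 lower. In 3 promoters (Nlrc4, Tlr8 and Naip5) every BMDM library was above every MG library, where 5.36% of all promoters had this, and in 1 (Tlr3) every one was below, where 23% of all promoters had this. The median listed promoter lay 0.23 above the median of all promoters, and 28 of 34 lay above it. Distal sums gave 0 calls in either direction among 31 genes, where 1.88% of all genes were called higher and 0.571% lower. Without adjustment, 5 were higher and 3 lower at p under 0.05, and voom called 0. Groups did not overlap in 5 distal sums higher in BMDM (14.8% of all genes) and 4 lower (13.7%). The median listed distal sum lay 0.31 above that of all genes, and 25 of 31 lay above it.

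**Figure D1:**
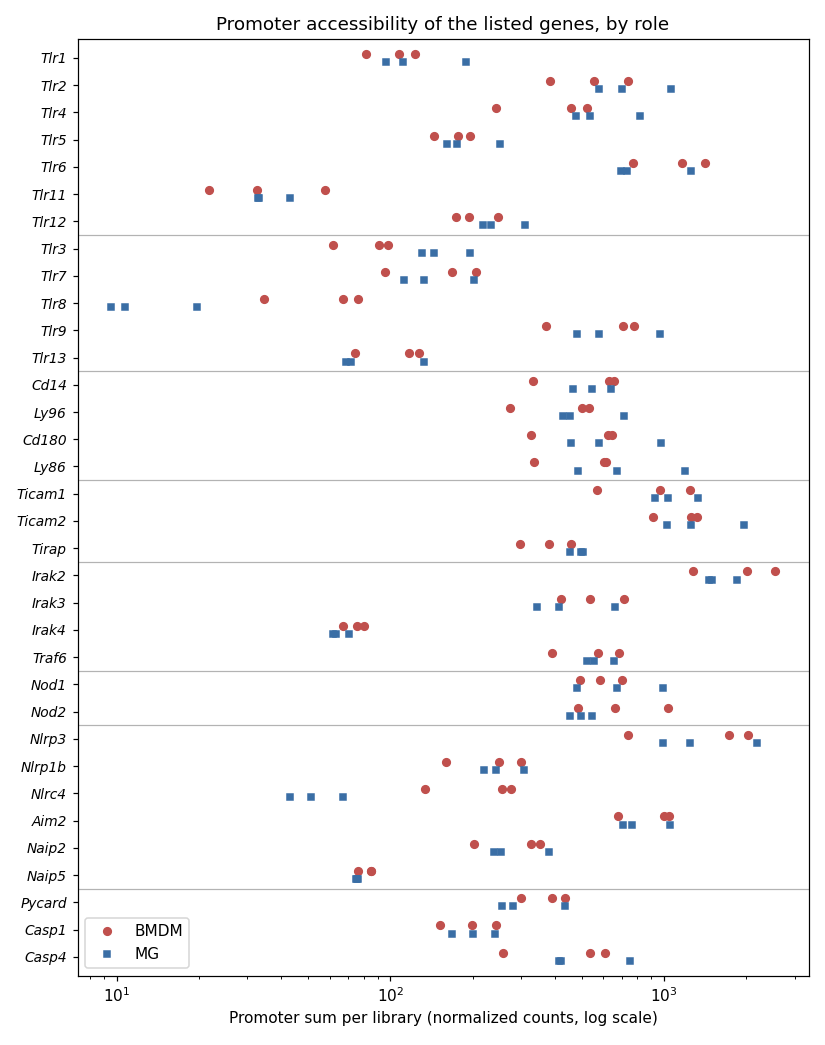
Promoter sums of the listed genes, grouped by role, with 1 point per library on a log axis of normalized counts, BMDM above MG. Nlrc4 and Tlr8 are the genes whose BMDM points lie furthest above their MG points, and Tlr3 has its BMDM points below its MG points.

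Single peaks gave more calls. Of 263 listed peaks tested, 19 (7.22%) in 13 genes were higher in BMDM, where 5.33% of all peaks were, and 0 were lower, where 1.54% were. Of the 19, 15 were distal (7.94% of 189, against 6.36% of all distal peaks) and 4 were of the promoter class (5.41% of 74, against 3.04%), so that both shares stood near those of all peaks. All 19 had every BMDM library above every MG library, among 52 listed peaks with groups apart in this direction (17% of all peaks) and 19 in the other (12.9%). In the authors' deposited table, whose test used the same libraries and counts, the same 19 were also higher at an adjusted p under 0.05. That table had 29 listed peaks higher (9.06% of all peaks) and 5 lower (5.38% of all peaks), and is no separate support for the limma calls. Peaks that it gave as higher without a limma call were those of Cd14, Irak2, Irak3, Ly86, Nod1, Nod2, Ripk2 and Tlr1. They outnumbered the 5 lower, none of which limma called. The limma calls depended on the libraries and the tool. Voom called 0 listed peaks (without adjustment, 48 higher and 12 lower at p under 0.05). Without BMDM 1, without BMDM 2 or without MG 3, 0 were called. Without BMDM 3 there were 11, without MG 1 there were 35 and without MG 2 there were 31.

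**Figure D2:**
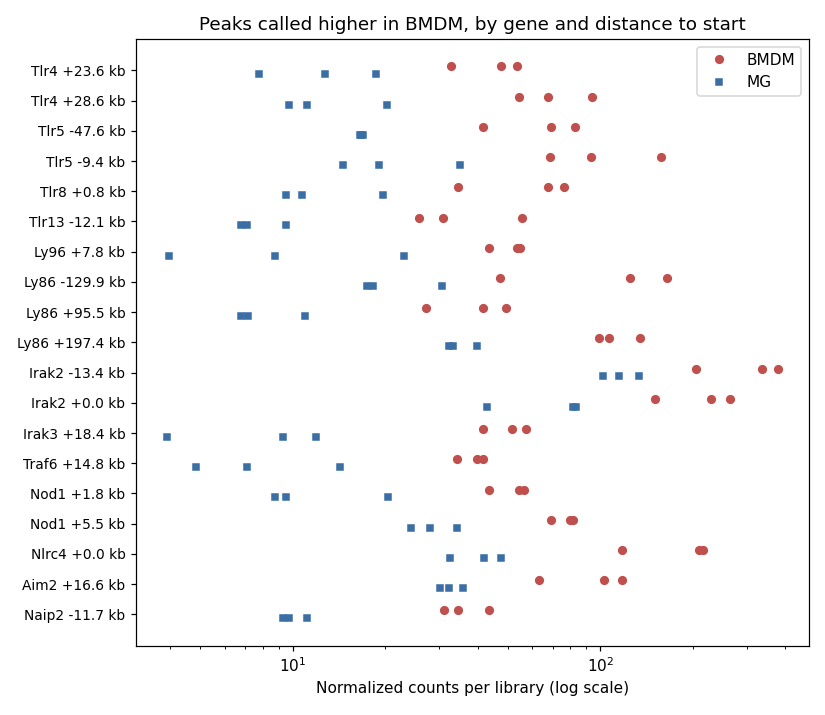
Normalized counts per library, on a log axis, of the 19 peaks called higher in BMDM, labelled by gene and distance to the transcript start, BMDM points listed before MG points. In each row the BMDM points lie to the right of the MG points without overlap.

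Among the surface receptors, the Tlr4 gene carried the clearest difference, inside the gene and not at its start. Tlr4, the lipopolysaccharide receptor, had 67.4, 93.9 and 54.3 normalized counts in BMDM 1, 2 and 3 at an intron peak 28593 bases past the start (chr4:66856795-66857484, mm10), against 11.1, 20.2 and 9.72 in MG 1, 2 and 3. A second intron peak, at 23636 bases (chr4:66851838-66852337), had 47.6, 53.7 and 32.6 in BMDM, against 12.7, 18.6 and 7.77 in MG. The groups did not overlap at either peak, and the limma differences were 2.48 ± 0.42 (adjusted p = 0.0260) and 1.88 ± 0.45 (adjusted p = 0.0485).

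The Tlr4 promoter peak (chr4:66827225-66829175) had 458, 524 and 243 normalized counts in BMDM and 816, 536 and 475 in MG. These ranges overlap, and the difference of -0.30 ± 0.32 was not called (limma adjusted p = 0.240). Summed distal counts were 236, 342 and 237 in BMDM, against 117, 137 and 101 in MG, without overlap, and the difference of 1.29 ± 0.27 had a limma adjusted p of 0.0533. Within each library the log2 ratio of distal to promoter counts was -0.95, -0.62 and -0.03 in BMDM, against -2.80, -1.96 and -2.22 in MG. That ratio, a direct test of distal against promoter, differed by 1.55 ± 0.36 (limma adjusted p = 0.0394). Among 29 listed genes with both sums, Tlr4 was the 1 gene called higher (3.83% of all 10656 genes were) and Nlrc4 the 1 called lower (0.432% were). Both calls were lost without BMDM 1, BMDM 2, BMDM 3 or MG 3 (limma adjusted p of Tlr4 0.0795 to 0.217). In each of these runs 0 of all 10656 genes were called.

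Tlr5, the receptor of bacterial flagellin, had 2 called intergenic peaks upstream of its start. The peak at -9421 bases (chr1:182944738-182945367) had 93.2, 158 and 68.8 normalized counts in BMDM, against 19.0, 35.0 and 14.6 in MG, and differed by 2.32 ± 0.44 (limma adjusted p = 0.0287). The peak at -47592 bases (chr1:182906872-182907196) had 69.4, 82.9 and 41.7 in BMDM, against 16.7, 16.9 and 16.5 in MG, and differed by 1.97 ± 0.38 (limma adjusted p = 0.0300). Both were free of overlap, whereas the Tlr5 promoter (chr1:182953521-182955388) had 177, 196 and 145 in BMDM and 252, 161 and 176 in MG, which overlap. Of the 16 Tlr5 peaks, 13 lay above the median peak.

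The other genes listed with the surface receptors had no called peak, and this grouping does not state where each protein lies in the cell. Tlr6, which pairs with Tlr2 to sense lipopeptides, had the highest promoter sum of the group, with 1416, 1160 and 774 normalized counts in BMDM and 1255, 694 and 736 in MG. Its largest promoter peak was at chr5:64960469-64961766, and the libraries of the groups overlapped (0.64 ± 0.36, limma adjusted p = 0.632). Promoter differences of Tlr1, the other partner of Tlr2, of Tlr2 itself and of Tlr11 and Tlr12, which sense profilin of Toxoplasma in mice, ran from -0.17 to 0.26 with adjusted p of 0.409 to 0.963. The 2 distal peaks of Tlr12 together had 37.7, 41.4 and 32.6 normalized counts in BMDM, against 10.3, 26.2 and 15.5 in MG. These do not overlap, but the difference of 1.26 ± 0.46 was not called (limma adjusted p = 0.181).

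Among the endosomal receptors, which sense nucleic acids, Tlr8 stood higher in BMDM and Tlr3 stood lower without passing the test. Tlr8, in humans a sensor of RNA breakdown products, had 1 promoter-class peak, 793 bases past a transcript start (chrX:167262356-167262995), with 67.4, 76.4 and 34.4 normalized counts in BMDM, against 9.52, 19.7 and 10.7 in MG. Every BMDM library lay above every MG library. The promoter sum is this 1 peak, so the 2 tests that follow use the same counts. As a promoter sum the difference was 2.38 ± 0.58 (limma adjusted p = 0.00626) and as a single peak 2.20 ± 0.46 (adjusted p = 0.0340). The promoter test hardly uses this promoter's own spread. The promoter call was lost with cyclic loess scaling (adjusted p = 0.0577), without BMDM 1 (0.0683), without BMDM 2 (0.126) and without MG 3 (0.0852). The RefSeq start window of Tlr8 itself was covered by no peak. The 3 distal Tlr8 peaks had 91.3, 92.6 and 88.8 normalized counts in BMDM and 88.1, 83.6 and 67.1 in MG, a difference of 0.31 ± 0.27 (limma adjusted p = 0.691).

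Tlr3, the receptor of double-stranded RNA, had 91.3, 97.8 and 61.6 normalized counts in BMDM at its single promoter peak (chr8:45409899-45410838), against 130, 196 and 145 in MG. The BMDM libraries were all below the MG libraries, but the difference of -0.59 ± 0.37 was not called (limma adjusted p = 0.0878). Its distal sum had 157, 124 and 170 in BMDM, against 309, 234 and 251 in MG, likewise without overlap (-0.71 ± 0.25, limma adjusted p = 0.106). All 5 Tlr3 peaks lay below the median peak, at -0.46 to -0.84. The promoter of Tlr3 passed the threshold without MG 1 (adjusted p = 0.0282).

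Tlr13, the mouse receptor of bacterial ribosomal RNA, had a called intergenic peak at -12105 bases (chrX:106130792-106131099), with 25.8, 55.7 and 30.8 normalized counts in BMDM, against 9.52, 7.11 and 6.80 in MG (2.20 ± 0.50, limma adjusted p = 0.0404). BMDM libraries all exceeded MG libraries there. Its promoter peak at chrX:106143001-106143563 had 113, 94.5 and 58.0 in BMDM and 117, 60.1 and 60.3 in MG, which overlap. Tlr9, the receptor of unmethylated CpG DNA, had the highest promoter sum among the endosomal receptors, 780, 710 and 371 in BMDM and 966, 481 and 581 in MG (chr9:106221761-106223472), again with overlap (0.18 ± 0.33, limma adjusted p = 0.843). Tlr7, a receptor of single-stranded RNA, had 8 peaks, none called, 5 of them above the median peak.

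The co-receptor Ly96 (MD-2), which binds lipopolysaccharide together with Tlr4, had a called intron peak, as Tlr4 did, while the groups overlapped at its start. At 7830 bases past the start (chr1:16696338-16696934) it had 53.6, 55.0 and 43.5 normalized counts in BMDM, against 3.97, 23.0 and 8.75 in MG. BMDM libraries were all higher, by 2.43 ± 0.57 (limma adjusted p = 0.0436). Its start peak (chr1:16687840-16689291) had 458, 502 and 245 in BMDM and 693, 404 and 439 in MG, which overlap. The distal sum of Ly96 had 89.3, 124 and 79.7 in BMDM, against 22.2, 43.2 and 29.2 in MG, with no overlap (1.74 ± 0.37, limma adjusted p = 0.0533), but 0.48 when a peak beyond 100 kb was counted too (adjusted p = 0.444). Its ratio of distal to promoter differed by 1.69 ± 0.48 (limma adjusted p = 0.0604).

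Ly86 (MD-1) and its partner Cd180 (RP105), a pair related to Ly96 and Tlr4 that restrains Tlr4 signalling in myeloid cells, carried 42 and 18 peaks. Ly86 had 42 peaks, the most of any listed gene, 26 of them distal and more than 100 kb from its start. Of the 40 tested, 20 lay above and 20 below the median peak, and 3 were called higher in BMDM. The called exon-class peak at 197377 bases (chr13:37542585-37543158) had 99.2, 135 and 107 normalized counts in BMDM, against 33.3, 32.3 and 39.8 in MG (1.79 ± 0.31, limma adjusted p = 0.0263). Peaks of the intergenic class lie between it and the Ly86 start, so the exon may be that of another gene. The intergenic peak at -129905 bases (chr13:37214662-37215303) had 165, 125 and 47.1 in BMDM, against 18.2, 30.6 and 17.5 in MG (2.29 ± 0.49, adjusted p = 0.0344). The intergenic peak at 95458 bases (chr13:37440666-37441110) had 41.7, 49.2 and 27.2 in BMDM, against 7.14, 10.9 and 6.80 in MG (2.24 ± 0.48, adjusted p = 0.0346). At each of the 3 the groups did not overlap.

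The promoter sum of Ly86, the highest among the co-receptors, was 603, 614 and 335 in BMDM and 1195, 486 and 673 in MG (start peak chr13:37344930-37346165). The groups overlapped, and the difference was -0.24 ± 0.33 (limma adjusted p = 0.326). Of 18 Cd180 peaks, 14 lay below the median peak and 0 were called. The lowest, at -34562 bases (chr13:102658010-102658996), had 99.2, 38.2 and 41.7 in BMDM, against 274, 111 and 176 in MG (-1.54, limma adjusted p = 0.0550). It lay lower in every BMDM library, and the authors' deposited table gives it as lower in BMDM with an adjusted p of 0.0113. Cd14, which hands lipopolysaccharide to Ly96 and Tlr4, differed by 0.24 at its promoter (adjusted p = 0.911) and 0.07 in its distal sum (adjusted p = 0.954). Its distal peak at 13038 bases differed by 1.27 ± 0.37 (limma adjusted p = 0.0869), and the other distal peaks by -0.73 and -0.18. The authors' deposited table gives the peak at 13038 bases as higher in BMDM (adjusted p = 0.0456).

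**Figure D3:**
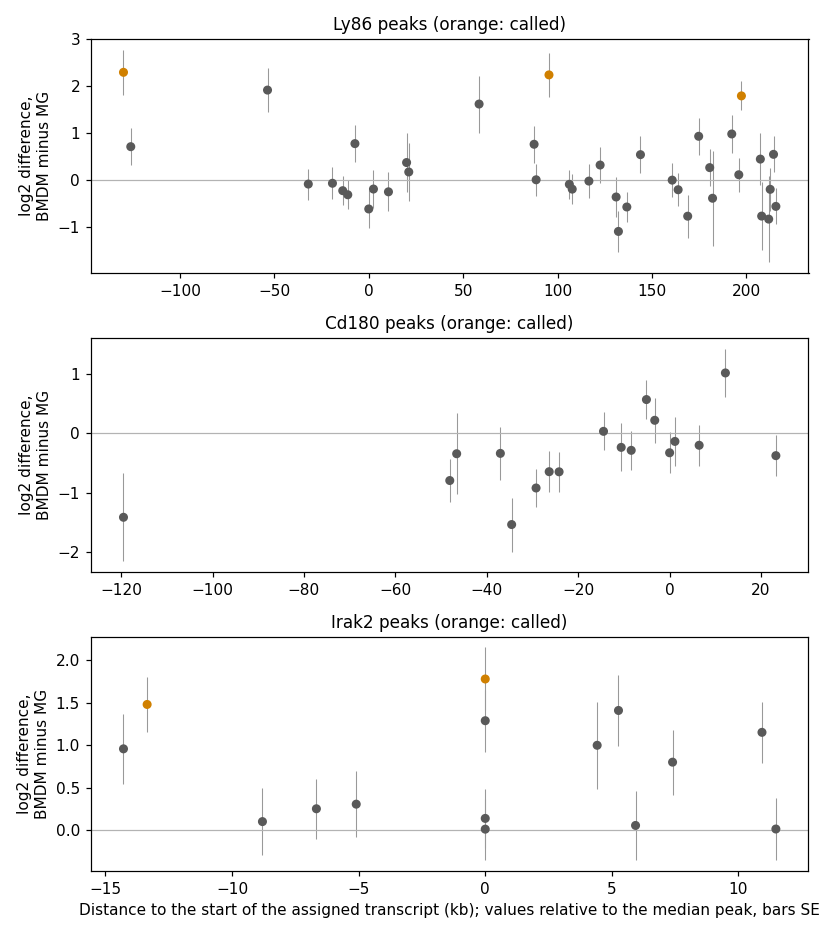
Log2 difference of each tested peak of Ly86, Cd180 and Irak2, BMDM minus MG relative to the median peak, against its distance to the transcript start in kb, with standard errors as bars and called peaks in orange. Ly86 peaks scatter on both sides of 0, 14 of 18 Cd180 peaks lie below it and all 15 Irak2 peaks lie above it.

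No adaptor gene had a called peak or sum. Ticam2 (TRAM), which links Tlr4 to Ticam1, had the highest promoter sum of the adaptors, 1321, 1257 and 915 normalized counts in BMDM and 1960, 1030 and 1256 in MG. Its groups overlapped (0.07 ± 0.39, limma adjusted p = 0.745). Ticam1 (TRIF), which serves Tlr3 and Tlr4, held more per length, 580 normalized counts per kb of peak averaged over all 6 libraries, against 290 for Ticam2 and 321 for Tirap (MAL), which brings Myd88 to Tlr2 and Tlr4. The promoters of Ticam1 and Tirap differed by 0.01 and -0.07, with adjusted p of 0.663 and 0.512.

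Some start sites lay under peaks that the table gives to a neighbour. For Myd88, the adaptor of nearly all Toll-like receptors, the RefSeq start window lay under a peak annotated to Acaa1a (chr9:119339609-119340448), with 391, 335 and 230 normalized counts in BMDM and 405, 269 and 246 in MG (0.19 ± 0.34, limma adjusted p = 0.937). The start of Irak4, the kinase that Myd88 recruits, lay under a peak of Pus7l (-0.18 ± 0.35, adjusted p = 0.627), and that of Irak1, its partner, under a peak of Mir5132 (-0.28 ± 0.34, adjusted p = 0.492). At all 3 the groups overlapped, and these peaks are in no count above. Ripk2 also had no promoter-class peak under its symbol. No RefSeq window was found for Ripk2, so its start was not checked for a peak of a neighbour.

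Among the kinases, all 15 peaks of Irak2 and all 7 of Irak3 lay above the median peak, and 2 and 1 of these were called, while all 3 of Irak1 lay below it and 0 were called. Irak2, a kinase that prolongs Toll-like receptor signalling, had a called intron-class peak at -13353 bases from its assigned start (chr6:113654818-113655497). It had 337, 379 and 205 normalized counts in BMDM, against 134, 115 and 102 in MG (1.48 ± 0.33, limma adjusted p = 0.0411). This peak lies past an earlier Irak2 start peak (chr6:113638104-113639136) and so not upstream of the whole gene. A second called peak, of the promoter class (chr6:113692567-113692996), had 230, 265 and 150 in BMDM, against 83.3, 81.4 and 42.8 in MG (1.78 ± 0.37, adjusted p = 0.0346). Groups did not overlap at either. The largest promoter peak of Irak2 (chr6:113668329-113670087) had 1141, 850 and 547 in BMDM and 827, 853 and 746 in MG. Its promoter sum, the highest of all listed genes, was 2551, 2005 and 1275 in BMDM and 1847, 1500 and 1459 in MG, with overlap in both (0.54 ± 0.44, limma adjusted p = 0.787).

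Irak3 (IRAK-M), an inhibitor of the same kinases in macrophages, had an intron peak at 18430 bases (chr10:120151364-120151948) with 57.5, 51.8 and 41.7 normalized counts in BMDM, against 11.9, 9.29 and 3.89 in MG. BMDM libraries were higher in every case, by 2.69 ± 0.49, which was the largest difference among the 19 called peaks (limma adjusted p = 0.0274). Its size rests on few MG reads, since 3 reads in MG 3 make 2.92 normalized counts. Its distal sum was 551, 449 and 355 in BMDM, against 304, 147 and 204 in MG, without overlap but not called (1.196 ± 0.318, limma adjusted p = 0.0928). The promoter (chr10:120200954-120202714) had 712, 535 and 420 in BMDM and 665, 345 and 414 in MG, which overlap. The distal sum of Irak1 was 67.4, 59.6 and 72.5 in BMDM, against 125, 145 and 97.2 in MG, with every BMDM library lower but no call (-0.75 ± 0.29, limma adjusted p = 0.122). Traf6 had a called peak of the 3' UTR class (chr2:101699004-101699545), with 39.7, 34.3 and 41.7 in BMDM, against 14.3, 7.11 and 4.86 in MG (2.27 ± 0.51, limma adjusted p = 0.0388). Its promoter at chr2:101678122-101679640 differed by 0.21 ± 0.33 (adjusted p = 0.879).

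The NOD receptors detect fragments of bacterial peptidoglycan and signal through the kinase Ripk2. Nod1 had 14 peaks, 2 of them called. The promoter-class peak at 1814 bases (chr6:54925825-54926284) had 43.6, 56.3 and 54.3 normalized counts in BMDM, against 9.52, 8.75 and 20.4 in MG (2.14 ± 0.44, limma adjusted p = 0.0328). The exon-class peak at 5456 bases (chr6:54933642-54934395) had 69.4, 79.6 and 81.5 in BMDM, against 34.1, 27.9 and 24.3 in MG (1.53 ± 0.32, limma adjusted p = 0.0361). BMDM libraries were above MG libraries at both. The Nod1 promoter sum, the highest of the group, was 583, 705 and 495 in BMDM and 482, 989 and 676 in MG, which overlap (largest promoter peak chr6:54971871-54973188). Nod2 had 663, 1034 and 486 in BMDM and 547, 497 and 453 in MG at its promoter (0.79 ± 0.33, adjusted p = 0.411), and the 6 peaks of Ripk2, all distal, lay 3 above and 3 below the median peak. The authors' deposited table gives the Nod2 peak at -737 bases (adjusted p = 0.00883) and the Ripk2 peak at 60472 bases (adjusted p = 0.0264) as higher in BMDM. Limma called neither (adjusted p = 0.0594 and 0.0562).

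Nlrc4, the sensor that oligomerizes with Naip proteins bound to flagellin or secretion-system proteins, showed the clearest promoter difference. Its promoter sum was 256, 276 and 134 normalized counts in BMDM 1, 2 and 3, against 42.8, 67.2 and 51.5 in MG 1, 2 and 3. The lowest BMDM library was above the highest MG library, and the difference was 2.29 ± 0.37 (limma adjusted p = 8.47e-06). It was called under every alternative run, with adjusted p up to 0.0118. The start peak, chr17:74458736-74459432, covers the Nlrc4 window printed above with its C/EBP letters, and had 216, 210 and 118 in BMDM, against 32.5, 47.6 and 41.8 in MG (2.23 ± 0.35, limma adjusted p = 0.0260).

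The distal sum of Nlrc4 went the other way. It was 196, 135 and 170 normalized counts in BMDM, against 287, 568 and 384 in MG, with every BMDM library lower, but was not called (-1.15 ± 0.31, limma adjusted p = 0.0615). The log2 ratio of distal to promoter counts was -0.38, -1.03 and 0.34 in BMDM, against 2.72, 3.06 and 2.87 in MG, and differed by -3.48 ± 0.41 (limma adjusted p = 0.0295). This call was lost without BMDM 1 (0.0795), BMDM 2 (0.156), BMDM 3 (0.0887) or MG 3 (0.215). In each of these runs the ratio test called 0 of all 10656 genes.

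An intergenic peak at -13741 bases (chr17:74472883-74474078) weighed on the distal sum of Nlrc4. It had 11.9, 15.5 and 34.4 normalized counts in BMDM, against 13.5, 356 and 188 in MG 1, 2 and 3. Only MG 2 and MG 3 were high, MG 1 lying among the BMDM libraries, and limma did not call it (adjusted p = 0.173), while the authors' deposited table gives it as lower in BMDM with an adjusted p of 0.00154. Without it the distal sum was 184, 120 and 136 in BMDM, against 274, 212 and 196 in MG (-0.53, limma adjusted p = 0.204), and the ratio still differed, by -2.86 (adjusted p = 0.0349), in an alternative chosen after seeing the data.

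The same 2 libraries stood out at peaks of other listed genes. The Nod1 peak at -1484 bases (chr6:54944937-54945599) had 13.9, 14.9 and 10.9 normalized counts in BMDM, against 7.14, 176 and 83.6 in MG 1, 2 and 3. It is of the promoter class, so these counts are part of the Nod1 promoter sum given above. The Cd180 peak at -119490 bases (chr13:102573051-102574068) had 59.5, 40.1 and 27.2 in BMDM, against 29.4, 339 and 170 in MG 1, 2 and 3. At both, MG 1 was within or below the BMDM libraries, and limma called neither, while the authors' deposited table gives them as lower in BMDM (adjusted p of 0.00925 for Nod1 and 0.0172 for Cd180). MG 2 and MG 3 were also the libraries with the highest summed promoters of neurons, astrocytes and oligodendrocytes, and the part of such cells at these peaks was not tested.

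**Figure D4:**
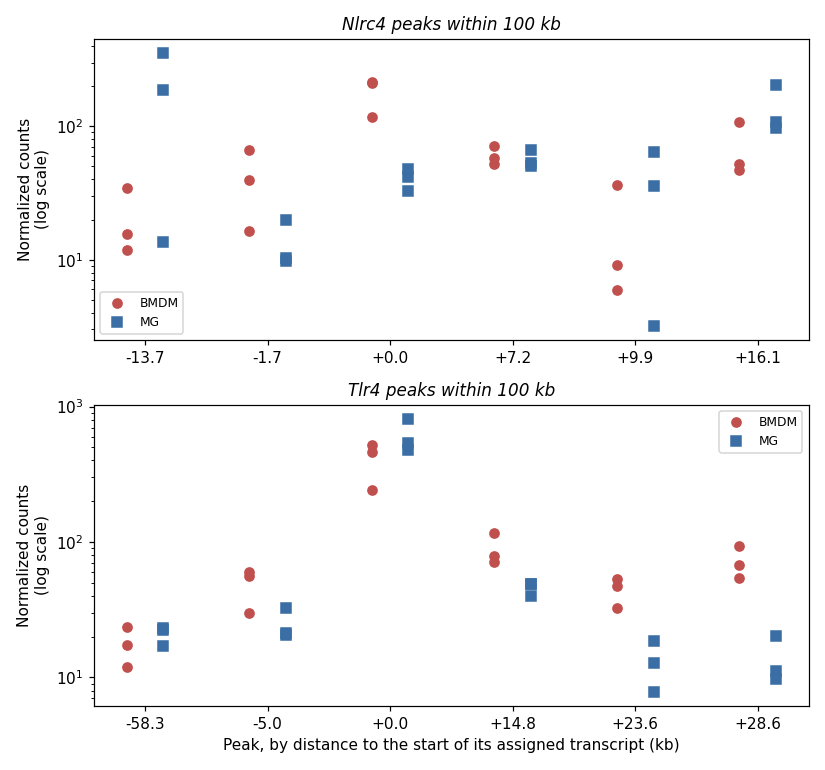
Normalized counts per library, on a log axis, at each peak of Nlrc4 and Tlr4 within 100 kb, ordered by distance to the transcript start in kb, BMDM points left of MG points. At Nlrc4 the start peak is higher in BMDM and the upstream peak is high in MG 2 and MG 3 alone, and at Tlr4 the 2 intron peaks furthest downstream are higher in BMDM while the start peak overlaps.

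**Figure D5:**
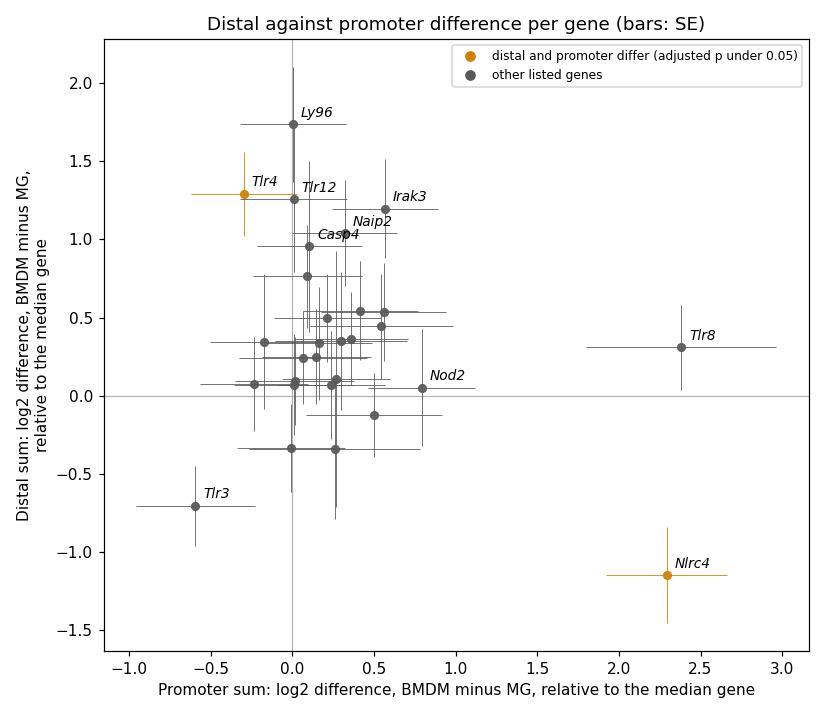
Log2 difference of the distal sum, BMDM minus MG relative to the median gene, against that of the promoter sum for the 29 listed genes with both, with standard errors as bars. Tlr4 (promoter -0.30, distal 1.29) and Nlrc4 (promoter 2.29, distal -1.15), in orange, are the genes whose 2 differences differ at an adjusted p under 0.05.

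Of the other sensors, Aim2 and Naip2 had a called peak, each outside the promoter. Aim2, the sensor of cytosolic DNA, had a called intron peak at 16637 bases (chr1:173437235-173437844) with 103, 118 and 63.4 normalized counts in BMDM, against 35.7, 32.3 and 30.1 in MG (1.60 ± 0.35, limma adjusted p = 0.0385). The groups did not overlap there, whereas its largest promoter peak (chr1:173420208-173420979) had 385, 293 and 178 in BMDM and 440, 238 and 282 in MG, which do. Nlrp3, which responds to potassium efflux and many danger signals, had the highest promoter sum of the sensors, 2023, 1735 and 741 in BMDM and 2186, 993 and 1241 in MG, with overlap (0.30 ± 0.40, limma adjusted p = 0.985). Its largest promoter peak, chr11:59541215-59543024, covers the Nlrp3 window above. Nlrp1b, which in mice senses anthrax lethal factor, differed by 0.16 at its promoter (adjusted p = 0.811).

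Naip2, which binds a rod protein of bacterial secretion systems, had a called intron-class peak at -11689 bases (chr13:100213781-100214056) with 43.6, 31.1 and 34.4 normalized counts in BMDM, against 11.1, 9.29 and 9.72 in MG (1.88 ± 0.43, limma adjusted p = 0.0417), free of overlap. Its start peak (chr13:100201569-100202306) had 196, 189 and 123 in BMDM and 230, 159 and 176 in MG, which overlap. Naip5, the flagellin receptor, had 1 peak, with 85.3, 84.8 and 76.1 in BMDM and 75.4, 76.0 and 74.8 in MG. There the lowest BMDM library was just above the highest MG library (0.43 ± 0.40, limma adjusted p = 0.884). Naip genes belong to a family of near copies, between which reads may be shared or lost in alignment, so these values are uncertain.

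Below the sensors, the adaptor Pycard (ASC) and the caspases Casp1 and Casp4 had no called peak or sum. Casp4, the sensor of cytosolic lipopolysaccharide known in mice as caspase-11, had the highest promoter sum of the group, 607, 538 and 259 normalized counts in BMDM and 752, 414 and 421 in MG (largest peak chr9:5308131-5309550), with overlap (0.10 ± 0.32, limma adjusted p = 0.735). Casp1 differed by 0.27 ± 0.33 (adjusted p = 0.949) and Pycard by 0.55 ± 0.32 (adjusted p = 0.701) at the promoter.

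Each library also has its own list of peaks, called by the authors. Of the 266 listed peaks, 124, 196 and 58 overlapped the own peak list of BMDM 1, 2 and 3 by at least 1 base, and 167, 199 and 152 that of MG 1, 2 and 3, where the lists held 33982, 52631 and 17741 peaks in BMDM and 50217, 70739 and 52566 in MG. In all 6 lists there were 56 listed peaks, 9 of them of Irak2, and in none 18. Of the 19 called peaks, all were in the list of BMDM 2, 11 in that of BMDM 1 and 2 in that of BMDM 3, and 10 were in no MG list. Lists and counts come from the same libraries, so membership is no separate support for the calls. The shares over all peaks were not counted, so these overlaps cannot be read as a trait of the listed genes.

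The 76 other genes of the pathway were listed by group, with earlier results of these data known. Of these genes, 74 had a tested promoter sum. Among them 3 (4.05%) were called higher and 0 lower, against 2.75% and 9.16% of all promoters. Before adjustment, at p under 0.05, 6 stood higher and 3 lower. How far the choice of genes shaped these shares was not tested. The 3 called genes are all in the list of NOD-like receptors, inflammasomes and pyroptosis, which had 29 tested promoters. Nlrc3, a NOD-like receptor known as an inhibitor of signalling, had 59.5, 92.6 and 81.5 normalized counts in BMDM, against 5.55, 14.2 and 24.3 in MG (2.83 ± 0.55, limma adjusted p = 0.000185). Mefv, which encodes the inflammasome sensor pyrin, had 492, 429 and 216 in BMDM, against 163, 127 and 112 in MG (1.74 ± 0.33, adjusted p = 0.000437). Naip1, a receptor of the secretion-system needle and a copy of the other Naip genes, had 39.7, 57.0 and 27.2 in BMDM, against 7.93, 11.5 and 8.75 in MG (2.29 ± 0.67, adjusted p = 0.0300). At all 3 the groups did not overlap.

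The groups of receptor trafficking factors (11 tested promoters), signalling proteins below the receptors (21) and inhibitors (13) had 0 called promoters in either direction, and their medians lay at 0.25, 0.14 and 0.34. Before adjustment these groups had 1, 0 and 1 promoters higher and 0, 2 and 1 lower at p under 0.05. Distal sums of the 76 genes gave 0 calls among 64, where 1.88% of all genes were called higher and 0.571% lower, with 11 higher and 2 lower before adjustment and a median of 0.47. Of their 575 tested single peaks, 42 (7.30%) were called higher and 1 lower, where 5.33% of all peaks were called higher and 1.54% lower.

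The authors' deposited table also holds a second comparison, with 1 value per gene, whose assay the file does not name. Its direction is not written there either, but the markers place it as BMDM over MG, with 8 of 8 monocyte and macrophage markers positive and 8 of 8 microglia markers negative. In that comparison 5.46% of 12813 genes were higher in BMDM and 4.04% lower at an adjusted p under 0.05. Of the listed genes, Ly86 (log2 fold change -2.15, adjusted p = 0.000973), Ripk2 (-1.46, adjusted p = 0.00618) and Tlr7 (-1.11, adjusted p = 0.0435) were lower in this comparison of the authors' deposited table, and Irak4 (1.04, adjusted p = 0.0221) was higher. The authors' deposited table gives Tlr8 a log2 fold change of 3.92 (adjusted p = 0.0562) and Nlrc4 one of 1.78 (adjusted p = 0.174), neither past the threshold. Which samples stand behind these values is not given in the sources used here.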

How the data were processed

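ATAC-seq libraries of BMDM and MG (3 each) were grouped and numbered from the labels. The submitters' processing notes name Bowtie2 (2.4.1) and cutadapt (1.8.1) for reads, DESeq2 (1.36.0), MACS2 (2.1.1.20160309) and ChIPseeker (1.32.1) for peaks, and the build mm10. Their settings, shifting of reads and treatment of duplicates are not given in the labels used here. The authors deposited 1 table of peaks, whose library columns hold variance-stabilized log2 values and whose other columns, per the file headers, hold a mean signal, log2 fold changes, p-values and adjusted p-values. The deposited peak list of each library gives a fold enrichment as a ratio and a −log10 p and −log10 q, used only to filter peaks within a list, and an integer score.

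Of 93084 lines, 155 repeated a peak and 65 peaks without annotation were left out, as were 8 columns of per-sample values that matched no sample. Inverting the transformation gave normalized counts, with a largest relative difference of 2.37e-06 between their mean and the deposited mean signal, and whole reads within 0.02 read for 100% of peaks. The value of 3 reads, the limit that a count of 0 allows, was 1.64 (MG 2) to 5.95 (BMDM 1) normalized counts, for counting error only, since PCR reads are not independent molecules.

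The main test was limma 3.58.1 (R 4.3.3) with a trend on log2(normalized count + 1) for features with a mean of at least 10, with Benjamini-Hochberg adjustment over all features. The pseudocount makes changes of low features look smaller. Of the 266 listed peaks, 263 passed that filter, 3 did not. At promoters the shared variance took nearly all the weight, so p-values there hardly use each promoter's own spread. Overlaps with peak lists used bedtools 2.31.1. The script was tested on simulated data. The members and gene lists were chosen with earlier results of these data known. Described in full are genes with a called sum, ratio or peak and the gene with the highest promoter sum in each role. The Tlr12, Cd180, Tlr3, Irak1, Nod2 and Naip5 values, the single peaks of Cd14 and Ripk2, and the peaks high in MG 2 and 3, were added after values were seen. Alternatives were another pseudocount (5), no filter, library totals, cyclic loess, voom, a replicate block, promoters to 1 kb, distal peaks at any distance, stricter overlaps, and each library left out.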

Additional observations from a re-analysis of the deposited data

How the results depend on the processing

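No called value changed direction under any alternative run, and the Nlrc4 promoter was called in each. Other calls turned on the setting. Listed peaks called higher in BMDM (19) numbered 31 with library totals, 0 with voom and 0 to 35 with 1 library left out. Listed peaks called lower (0) numbered 1 with library totals, 3 with cyclic loess and 0 to 9 with 1 library left out. With 1 library left out, promoter sums gave 1 to 2 calls higher and 0 to 1 lower (Tlr3, without MG 1), distal sums 0 to 5 higher and 0 to 1 lower, and ratios 0 to 2 higher and 0 to 1 lower. Distal sums called higher (0) numbered 2 with library totals (Irak3, Tlr4) and 2 with cyclic loess (Ly96, Tlr4), which also called 1 lower (Nlrc4). Where a group is left with 2 libraries, the variance is still pooled over both groups.

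Over all peaks, voom called 0 (lowest adjusted p 0.0505, 13899 higher and 7149 lower before adjustment), against 4687 higher and 1352 lower with the main test, and 0 were called without BMDM 1, BMDM 2 or MG 3. Cyclic loess gave 752 promoters higher and 461 lower, against 419 and 1397. The cause of these changes was not tested.

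The labels do not say whether replicate numbers pair the libraries. The deviations of libraries with the same number from their group means correlated at 0.44, -0.06 and 0.36. Deviations from a mean of 3 libraries are tied to each other, so these correlations cannot decide it. With the replicate block, listed peaks called were 31 higher and 6 lower, promoter sums 2 and 1 (Tlr3), distal sums 4 and 1, and ratios 3 and 1. With an overlap of at least 50% of the peak, the own lists held 80, 172 and 7 listed peaks in BMDM and 148, 171 and 125 in MG, and at −log10 q of at least 10 they held 90, 164 and 35 in BMDM and 149, 163 and 126 in MG.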
